A study of Mus musculus with 16 samples.

Results

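The nuclear-encoded subunits of mitochondrial complex I were examined in the left ventricles of 16 mice treated with angiotensin II (AngII). Members were the entries of the deposited count table whose symbol is Nduf followed by a, b, c, s or v and a number, leaving out assembly factors and symbols marked as pseudogenes, with at least 160 counts summed over the 16 libraries. They numbered 37 of 24982 entries, and all 37 were among the 13775 genes that passed the filter on low counts. Ndufs5 was the 1 entry that met the symbol rule and missed the threshold, with 0 counts in every library. Ndufb4c, with 31 to 51 counts per library, lay nearest to the threshold on the inside.

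Complex I (NADH:ubiquinone oxidoreductase) is the entry point of electrons from NADH into the respiratory chain of the inner mitochondrial membrane. The N module oxidises NADH, the Q module passes the electrons over iron-sulfur clusters to ubiquinone, and the membrane arm pumps protons. The nucleus encodes the core subunits of the N and Q modules and the accessory subunits of the whole complex, while the core subunits of the membrane arm are encoded by mitochondrial DNA and were not analysed here. Cardiomyocytes are rich in mitochondria and contract on ATP made largely by this chain.

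All mice were of the C57BL/6 strain, received tamoxifen by injection into the abdomen for 5 days, and 2 weeks later were given AngII, a hormone that raises blood pressure, from an implanted pump for 8 weeks. Either the mice were Tln2-null, or they were Tln2-null with a CF (cardiac fibroblast) knockout of Tln1, shortened to knockout, with 4 males and 4 females per genotype. Talins, the products of Tln1 and Tln2, link integrins to actin. By the labels, both genotypes are Tln2-null and Tln1 is targeted in fibroblasts alone. Wild-type mice and mice without AngII were not among the samples, the labels give neither the Cre driver nor the ages, and each library is 1 mouse. Replicates are numbered 1 to 8 within a genotype in the order of the records and have no other meaning.

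Libraries held 11161766 to 19221673 counts. In this whole-ventricle RNA, Tln1 stood at 289 ± 20.7 counts per 1000000 (CPM) in the Tln2-null group and at 274 ± 31.3 in the knockout group (mean ± SD of 8 mice). The log2 difference was -0.079 ± 0.069 (SE, edgeR adjusted p = 0.942). Reads of Tln2 were present in both groups labelled Tln2-null, at 66.8 ± 7.25 and 67.1 ± 2.32 CPM, and since the deleted part of the gene is not stated in the labels, its level checks no label. Summed cardiomyocyte markers lay at 70902 to 84611 CPM over the 16 libraries, and atrial markers at 306 to 1921 CPM. Adipocyte markers summed to at most 4.25 CPM. All 12 fibroblast markers had a log2 difference below 0 in the knockout (median -0.43), 0 of them called. At an unadjusted edgeR p under 0.05 there were 8 of these 12, beside 5.08 percent of all genes tested. The same held for 5 of 9 pericyte and smooth muscle markers (6 of 9 below 0), 3 of 15 cardiomyocyte markers and 0 of 10 endothelial markers. The libraries labelled female included 4 with reads of Y-linked genes above 1 percent of the male mean, Tln2-null replicate 4 and knockout replicates 3, 5 and 7, and main values between the sexes are given with and without them. Leaving them out leaves knockout replicate 2 as the only knockout female, so those values rest on that mouse for 1 of the 4 groups. It was the lowest library for most members, as described further on. No pair of libraries looked like a repeated deposit of the same library (120 pairs compared).

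Reads of all 37 members were found in every ventricle. Together the 37 members took 1.34 to 1.53 percent of all counts in Tln2-null mice and 1.30 to 1.53 percent in knockout mice. CPM values here are scaled by TMM factors, and levels are compared between genes only after division by the length of the longest protein-coding transcript, as CPM per kilobase. On that scale the highest member was Ndufa4, at 996 ± 66.1 CPM per kilobase (SD, n = 16). Ndufa4 was named as a complex I subunit and is now placed in complex IV. Ndufb9, an accessory subunit of the distal membrane arm, followed at 927 ± 61.9 CPM per kilobase, and Ndufb10, of the same arm, at 781 ± 52.5. Core subunits were spread through the order, with Ndufv1 at 559.6, Ndufs7 at 419, Ndufs1 at 396, Ndufv2 at 371, Ndufs3 at 370.4 and Ndufs8 at 305 CPM per kilobase.

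At the lower end stood Ndufb2 at 43.0 ± 3.17, Ndufa4l2 at 20.2 ± 2.02 and Ndufb4c at 6.20 ± 0.811 CPM per kilobase. Ndufa4l2, a relative of Ndufa4 known as a hypoxia-induced gene, was far below Ndufa4 in all 16 mice, with ranges of 15.1 to 22.7 against 856 to 1085 CPM per kilobase. Ndufb4c is a copy of Ndufb4 (chromosome 15, 73809449 to 73809933, minus strand, GRCm38), protein-coding in RefSeq and a processed pseudogene in GENCODE, so reads of the pair may have been shared in counting. Its length here, 390 bases, is that of its GENCODE pseudogene transcript. Leaving out Ndufa4l2 and Ndufb4c, the other 35 members spanned a 23.2-fold range and 27 of them lay within 2-fold of the median of 371 CPM per kilobase. Neighbours in the order had overlapping ranges over the mice in 31 of 36 pairs. Within each mouse, the gene of higher mean was the higher of its pair in all 16 mice for 9 pairs, and in 12 or fewer mice for 21 pairs. Ndufa4 was above Ndufb9 in 15 of 16 mice and Ndufb9 above Ndufb10 in 16 of 16, although their ranges overlap, while Ndufa6 was above Ndufa1 in 8 of 16. The order rests on the length used. With the median length of each gene's protein-coding transcripts in place of the longest, Ndufs1 took the highest rank, Ndufa4 stood at 1321, Ndufb10 at 909 and Ndufb2 at 77.9 CPM per kilobase.

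**Figure D1:**
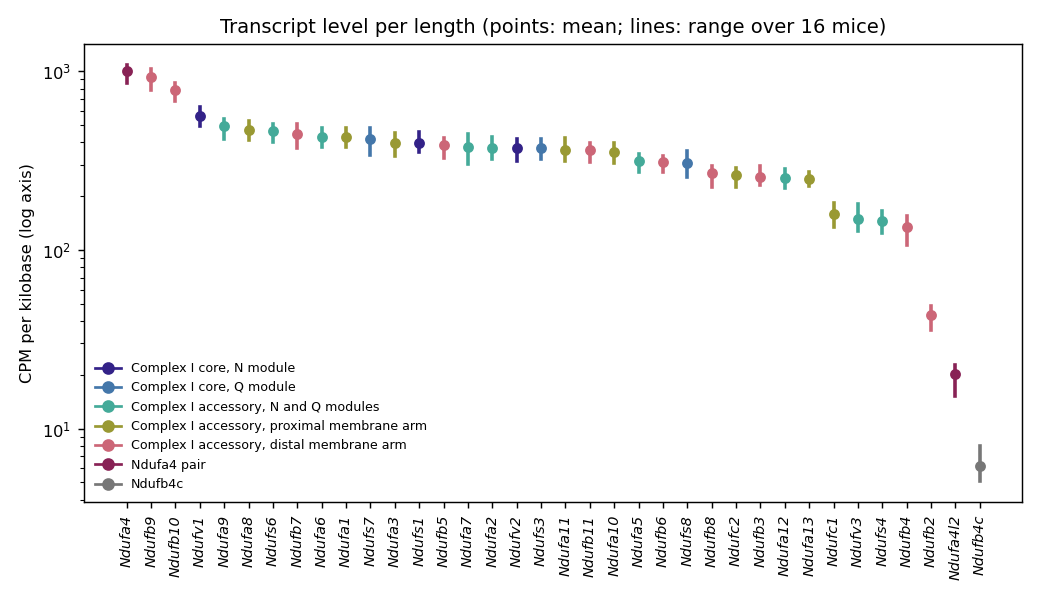
Level of 36 members in CPM per kilobase on a log axis, ordered from the highest. Points are means and lines are the range over 16 mice; Ndufa4 is highest at 996, Ndufb4c lowest at 6.20, and most neighbouring ranges overlap.

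Ndufs5, an accessory subunit gene, was listed at 0 in every library, which at 3 counts allows up to 0.156 to 0.269 CPM depending on depth. The entry BC002163, chosen after its values were seen, lies on chromosome 16 (42955631 to 42955949, plus strand, GRCm38) where RefSeq places the pseudogene Ndufs5-ps, whereas Ndufs5 itself is on chromosome 4. BC002163 had 10.8 to 15.9 CPM over the 16 mice. The genotypes did not differ detectably in it, at 13.6 ± 1.49 CPM in Tln2-null mice and 13.5 ± 1.56 CPM in knockout mice (log2 difference -0.018 ± 0.088, adjusted p = 0.994). How reads shared by the gene and its copy were assigned is not stated in the labels, so no value for Ndufs5 is reported.

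The members varied little between mice. Their coefficient of variation over the 16 mice had a median of 7.37 percent, from 5.83 percent for Ndufa5 to 13.1 percent for Ndufb4c. The median over all genes tested was 12.8 percent, and over the 1519 genes of at least 130.2 CPM it was 8.53 percent. Among the core subunits Ndufs7 varied most, at 11.5 percent.

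The first question of the design is whether loss of Tln1 in fibroblasts, on the Tln2-null background, came with a different level of these transcripts under AngII. None of the 37 members passed the test between genotypes, and no gene of the table did (0 percent of 13775). Log2 differences of the members, knockout minus Tln2-null, ran from -0.084 for Ndufa11 to 0.14 for Ndufs1, with a median of 0.00077 against -0.0027 over all genes tested. Of the 37, 19 lay above 0 and 18 below, and 36 lay within 0.1 of 0. The median SE was 0.057. Over all members the 95 percent intervals reached no lower than -0.23 and no higher than 0.32, and 36 of the 37 intervals held 0. At an unadjusted p under 0.05 there was 1 member, Ndufs1, beside 5.08 percent of all genes tested. In bulk tissue fewer cells of a type and less RNA per cell cannot be told apart. No member separated the 8 knockout from the 8 Tln2-null mice without overlap, as 0.0436 percent of all genes tested did.

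The N module holds 3 core subunits. Ndufs1 encodes the largest core subunit, which carries iron-sulfur clusters. Its level in Tln2-null mice had a lowest value of 949.9 CPM, a median of 1003 and a highest of 1081, and in knockout mice 937.7, 1126 and 1208 CPM. Knockout replicates 4, 6, 7 and 8 stood above the highest Tln2-null mouse, at 1181 CPM or more, while knockout replicate 2 was the lowest of all 16, so the genotypes overlapped. The means were 1001 ± 44.2 and 1105 ± 102 CPM. The log2 difference was 0.14 ± 0.054 with a 95 percent interval of 0.027 to 0.26 (edgeR adjusted p = 0.912). With the number in the sample titles as a further term the difference was 0.091.

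Ndufv2, an iron-sulfur subunit of the N module, ran from 548.3 through a median of 596.6 to 671.4 CPM in Tln2-null mice and from 533.8 through 666.03 to 704.8 CPM in knockout mice. The log2 difference was 0.083 ± 0.062 (adjusted p = 0.942), and 0.026 with the title number as a term. Ndufv1 encodes the subunit that binds NADH and the flavin. It stood at 880.7, 914 and 1017 CPM (lowest, median, highest) in Tln2-null mice and at 818, 937 and 1045 CPM in knockout mice, a log2 difference of 0.027 ± 0.053 (interval -0.085 to 0.14, adjusted p = 0.974). All 3 N module values were above 0, none called, and the ranges of the genotypes overlapped for each.

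Core subunits of the Q module had differences from -0.041 to 0.031. Ndufs3 stood at 357, 376 and 427 CPM (lowest, median, highest) in Tln2-null mice and at 336, 390.4 and 437 CPM in knockout mice, a log2 difference of 0.031 ± 0.056 (adjusted p = 0.970). The knockout range enclosed the Tln2-null range.

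Ndufs8, an iron-sulfur subunit that relays electrons towards ubiquinone, had 268, 305 and 347 CPM in Tln2-null mice and 257, 301 and 358 CPM in knockout mice. Its difference was 0.0044 ± 0.067 (interval -0.14 to 0.14), the smallest of the core subunits. Ndufs7, which carries the last iron-sulfur cluster before ubiquinone, ran from 356 through 437 to 460.1 CPM in Tln2-null mice and from 332 through 417 to 471 CPM in knockout mice. The difference of -0.041 ± 0.083 had the largest SE of the core subunits, and it was 0.034 with the title number as a term. Without the 4 female-labelled libraries with Y-linked reads, the differences of Ndufs3, Ndufs8 and Ndufv1 were -0.022, -0.043 and -0.037, with knockout replicate 2, the lowest library for all 3 genes, as the only knockout female left.

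**Figure D2:**
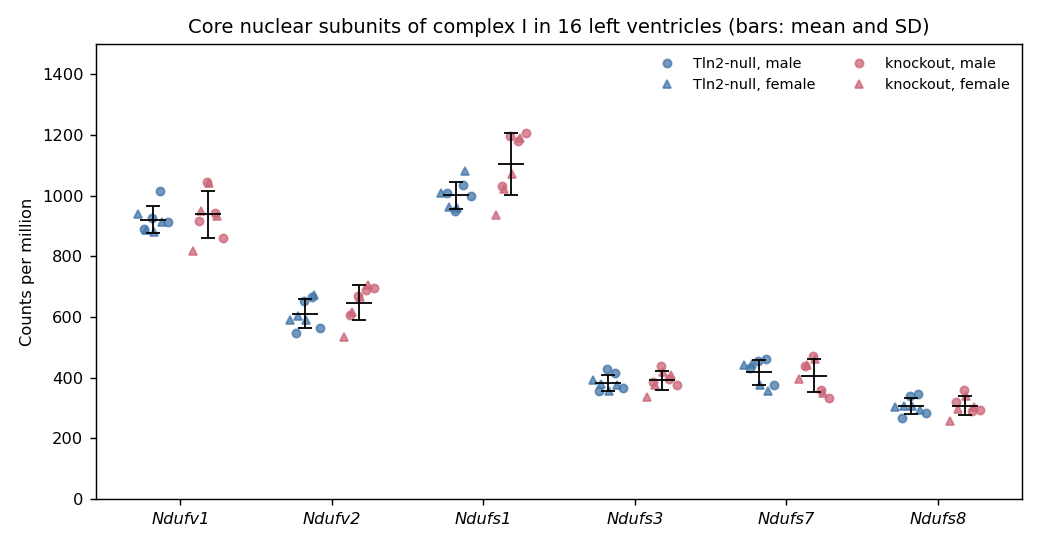
CPM of 6 core nuclear subunits in each mouse, Tln2-null in blue and knockout in red, males as circles and females as triangles, with mean and SD. The genotypes overlap for every gene shown; Ndufs1 has means of 1001 and 1105 CPM.

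Accessory subunits hold the complex together and are needed for its assembly. In the N and Q modules 3 of 9 lay above 0 (median log2 difference -0.018). Ndufs4, an accessory subunit whose loss causes Leigh syndrome in people, was at 242 ± 16.4 CPM in Tln2-null mice and 253 ± 20.9 CPM in knockout mice, a difference of 0.066 ± 0.059. Ndufa9, which sits beside the quinone site, was at 698 ± 40.6 and 725 ± 54.2 CPM, a difference of 0.054 ± 0.052. Neither passed (adjusted p = 0.942 and 0.946). With the title number as a term they were 0.020 for Ndufs4 and 0.026 for Ndufa9, and without knockout replicate 2 they were 0.10 and 0.090.

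In the proximal membrane arm 1 of 8 lay above 0 (median -0.021). Ndufa11, an accessory subunit of that arm, had 295.6, 353 and 385 CPM (lowest, median, highest) in Tln2-null mice and 287, 328 and 387 CPM in knockout mice. Its difference of -0.084 ± 0.072 was the lowest of all members and did not pass (adjusted p = 0.942). In the distal membrane arm 7 of 10 lay above 0 (median 0.0090). Ndufb4 was at 127 ± 9.98 and 133 ± 14.2 CPM, a difference of 0.062 ± 0.070 (adjusted p = 0.948). Its copy Ndufb4c was at 2.36 ± 0.317 and 2.47 ± 0.327 CPM, and whether reads shared by the pair affect either value was not tested. The difference of Ndufb4 was 0.010 with the title number as a term and 0.11 without knockout replicate 2. Ndufa4 was at 599.6 ± 38.6 and 616 ± 42.8 CPM (difference 0.038 ± 0.053), and Ndufa4l2 at 19.2 ± 1.25 and 18.6 ± 2.42 CPM (difference -0.048 ± 0.078). For each of these genes the difference was within the spread between mice.

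**Figure D3:**
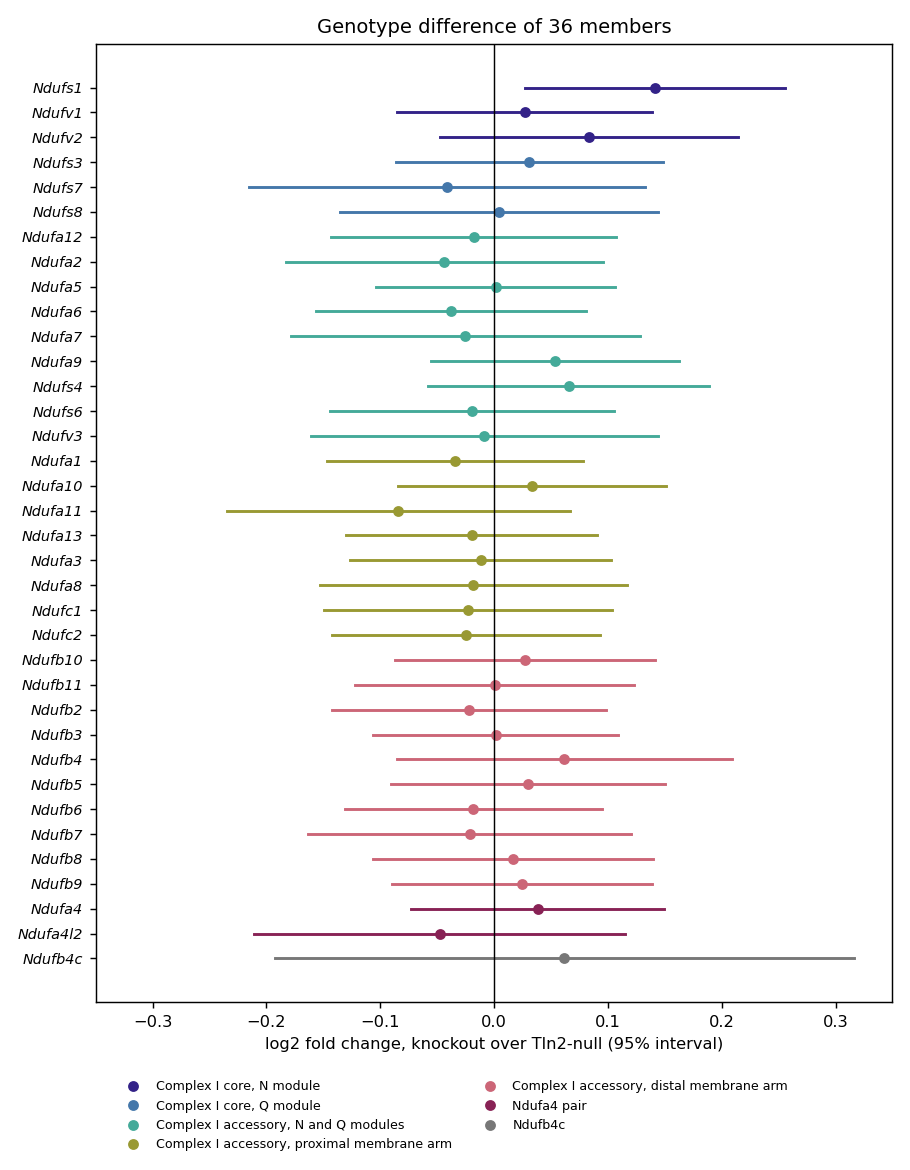
Log2 fold change of 36 members, knockout over Tln2-null, with its 95 percent interval, ordered by position in the complex. Ndufs1 at 0.14 has the 1 interval that does not hold 0; the others hold 0 and none passed the adjusted test.

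The genes that work with complex I gave 0 calls between genotypes as well. Of 17 assembly factors tested, 14 lay above 0 (median log2 difference 0.061), among them Acad9, a core part of the assembly machinery, at 73.7 and 78.8 CPM (0.096 ± 0.045, adjusted p = 0.935). All 4 subunits of complex II lay above 0 (median 0.047), with Sdha, its flavoprotein, at 0.11. Complex III had 6 of 9 above 0 (median 0.023), complex IV 6 of 13 (median -0.0018) and ATP synthase 9 of 16 (median 0.0094). Of 12 regulators of mitochondrial genes, 9 lay above 0 (median 0.056). The lowest p among them was that of Esrrg, a nuclear receptor that activates oxidative genes, at 68.3 and 76.4 CPM (0.16 ± 0.056, adjusted p = 0.799). Cardiomyocyte markers lay above 0 in 14 of 15 (median 0.069). Over all genes tested, 6723 of 13775 lay above 0. The genes of a list were read in the same 16 mice and are not independent, so these sign counts are descriptive.

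Set against cardiomyocyte RNA, the summed members came to 17.3 to 20.2 CPM per 100 CPM of cardiomyocyte markers in Tln2-null mice (mean 18.6 ± 0.985) and 17.1 to 19.3 in knockout mice (mean 17.9 ± 0.747). These ranges overlapped. What the balance of cell types contributes to the member values was not tested beyond this ratio.

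Most members reached their lowest level in the same mouse. Knockout replicate 2, a female, was the lowest library for 31 of 37 members, beside 8.78 percent of all genes tested and 23.5 percent of the 1519 genes of at least 130.2 CPM. The summed members stood at 12470 CPM in this mouse and at 13227 to 15599 CPM in the other 15. Its median log2 deviation over the members, from each gene's mean over the mice, was -0.21, where the other 15 mice ran from -0.12 to 0.13. The 6 members with another lowest library were Ndufs7 and Ndufa8 (knockout replicate 8), Ndufa4l2 (knockout replicate 7), Ndufa1 (knockout replicate 6), Ndufc2 (Tln2-null replicate 7) and Ndufb4c (Tln2-null replicate 1). High values were shared out more widely, with knockout replicate 5 highest for 9 members, knockout replicate 4 for 8, and Tln2-null replicates 3 and 5 for 7 each.

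Other respiratory chain genes and cardiomyocyte markers were low in the same mouse. Knockout replicate 2 was the lowest library for 4 of 4 subunits of complex II, 9 of 9 of complex III, 10 of 13 of complex IV and 15 of 16 of ATP synthase. It was the lowest for fewer of the assembly factors (5 of 17) and of the regulators of mitochondrial genes (2 of 12), whose summed level ranked 13 of 16 from the lowest. Its summed cardiomyocyte markers were the lowest of all, at 70902 CPM against 73383 to 84611 CPM in the others, with 10 of 15 markers at their lowest. Its summed endothelial markers were the highest, at 2294 CPM against 1854 to 2264 CPM, and its fibroblast markers ranked 13 of 16 from the lowest. Its ratio of members to cardiomyocyte markers, 17.6 per 100 CPM, ranked 4 from the lowest and so lay among those of the other mice. The part of tissue composition in these low values was not tested. Without this mouse the median log2 difference of the members between genotypes was 0.028 and the difference of Ndufs1 was 0.17.

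**Figure D4:**
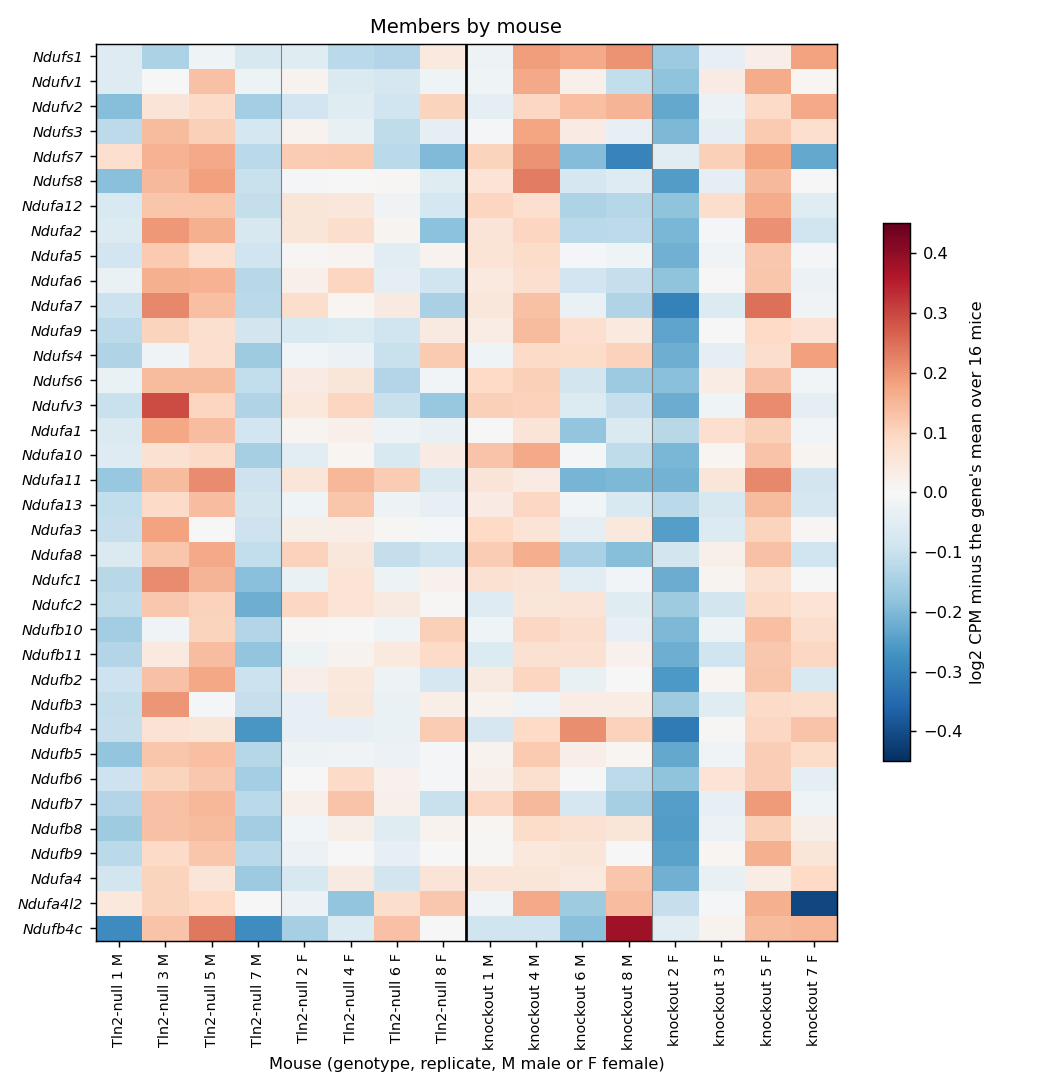
Log2 CPM of 36 members minus their mean over the 16 mice, in colour, with mice in columns by genotype and sex and genes in rows by position in the complex. Knockout 2 is low (blue) for nearly all genes, with a median deviation of -0.21, and is the lowest mouse for 31 of all 37 on the TMM-scaled values.

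The sequence before the starts of the members was described by motifs of factors known to act on respiratory chain genes. A link between these motifs and the low values in knockout replicate 2 was not tested. RefSeq promoters (GRCm38.p6, the 250 bases before the start) were at hand for 31 members, and both strands were read. The motif of NRF1, a factor known for respiratory chain promoters, searched with 1 position left free, was found in 5 of 31 (16.1 percent), beside 3.86 percent of 27025 promoters and 8.08 percent of the 10768 promoters of genes tested. These matches are shown because this motif was more frequent among the members than among either set of promoters. Each line gives 30 bases in the direction of the gene with the match in capitals:
Ndufs6 (chr13:73328479-73328508, minus strand): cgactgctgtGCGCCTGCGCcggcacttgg
Ndufa8 (chr2:36049349-36049378, minus strand): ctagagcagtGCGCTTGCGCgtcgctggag
Ndufa11 (chr17:56717692-56717721, plus strand): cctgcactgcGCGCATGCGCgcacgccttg
Ndufa5 (chr6:24527697-24527726, minus strand): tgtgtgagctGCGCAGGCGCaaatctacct
Ndufb4, farthest from the start (chr16:37654540-37654569, minus strand): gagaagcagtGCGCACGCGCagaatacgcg
Ndufb4, middle (chr16:37654428-37654457, minus strand): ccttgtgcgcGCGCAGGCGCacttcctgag
Ndufb4, nearest (chr16:37654371-37654400, minus strand): cctcatatccGCGCAGGCGCagatgtgcgc

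Ndufb4 held 3 matches, 191, 79 and 22 bases before its start, and the other 4 genes held 1 each, from 16 bases before the start in Ndufs6 to 190 in Ndufa5. The 5 genes did not share a direction between genotypes, with log2 differences from -0.084 for Ndufa11 to 0.062 for Ndufb4. The ETS motif of the GABP kind, CCGGAAG, was found in 3 of 31 (9.68 percent), beside 7.05 percent of all promoters and 13.4 percent of those of genes tested. The core subunit Ndufs3 held it 27 bases before its start, with the match in capitals:
Ndufs3 (chr2:90904730-90904759, minus strand): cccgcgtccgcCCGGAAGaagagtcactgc

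The E-box CACGTG was found in 2 of 31 promoters (6.45 percent, beside 6.05 and 8.42 percent), and CCAAT in 10 of 31 (32.3 percent, beside 34.5 and 36.2 percent). The YY1 motif AAGATGGC and the ERR motif TCAAGGTCA were found in 0 of 31, beside 1.95 and 0.241 percent of promoters of genes tested. The GC content of the member promoters had a median of 57.6 percent, against 52.0 percent for all promoters and 60.0 percent for those of genes tested. These are matches of letters in a fixed window and no binding was measured.

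Between the sexes none of the 37 members passed the test, where 0.0871 percent of all genes did (12 of 13775). Log2 differences, female minus male, ran from -0.085 for Ndufa4l2 to 0.056 for Ndufa11, with a median of -0.029. Of the 37, 29 lay below 0, beside 6941 of 13775 genes. The members shared this sign with 4 of 4 genes of complex II, 8 of 9 of complex III and 11 of 13 of complex IV. ATP synthase had 15 of 16 and cardiomyocyte markers 12 of 15 below 0, but fibroblast markers 2 of 12 and endothelial markers 1 of 10. No member had an unadjusted p under 0.05, against 3.69 percent of all genes tested, and every adjusted p of a member was 0.9998. Ndufa9 was at 728 ± 44 CPM in males and 696 ± 49.9 CPM in females (difference -0.064 ± 0.052). Ndufs1 was at 1076 ± 102 and 1029 ± 83.4 CPM (-0.061 ± 0.054) and Ndufs3 at 395 ± 29.4 and 379.9 ± 26.5 CPM (-0.057 ± 0.056). Ndufb2 was at 192 ± 13.5 and 184 ± 14.1 CPM (-0.055 ± 0.057), and Ndufa4l2 at 19.5 ± 1.38 and 18.3 ± 2.24 CPM (-0.085 ± 0.078). In each of these the sexes overlapped, as for all 37 members. The share of all genes whose sexes did not overlap was 0.109 percent.

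The members lie on 15 chromosomes, and 2 of them, Ndufa1 and Ndufb11, on the X. Ndufa1 was at 179 ± 14.9 CPM in males and 179 ± 8.76 CPM in females, a log2 difference of 0.0031 ± 0.054 (95 percent interval -0.11 to 0.12). Ndufb11 was at 328 ± 24.4 and 329.9 ± 24.9 CPM, a difference of 0.0078 ± 0.058 (interval -0.11 to 0.13). Neither X-linked gene differed detectably between the sexes. Leaving out knockout replicate 2, a female, moved the median sex difference of the members to -0.0033, and leaving out the female-labelled libraries with Y-linked reads moved it to -0.093. With those libraries left out Ndufa1 was at -0.070, Ndufb11 at -0.035, Ndufa9 at -0.12, Ndufs1 at -0.076, Ndufs3 at -0.12, Ndufb2 at -0.13 and Ndufa4l2 at -0.048, none called, and 11 of all genes were called. The knockout females are then knockout replicate 2 alone.

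No member passed the test of whether the genotype difference depended on sex (0 of 37 called, beside 0 percent of all genes, with adjusted p from 0.980 to 0.998). At an unadjusted p under 0.05 there were 0 members and 4.27 percent of all genes tested. The members' median genotype difference was 0.021 in males and -0.013 in females. The female minus male difference of the genotype effect had a median of -0.036 and ran from -0.16 for Ndufb4 to 0.13 for Ndufs7. Ndufs1 had a genotype difference of 0.21 in males and 0.073 in females, a gap of -0.14 ± 0.11, and Ndufa1 one of -0.088 in males and 0.020 in females, a gap of 0.11 ± 0.11. All 10 subunits of the distal membrane arm had a gap below 0, none passing, beside 24 of all 37 members and 6742 of 13775 genes. This sign was not particular to that arm. It was found in 4 of 4 genes of complex II, 8 of 9 of complex III and 10 of 13 of complex IV. So it was in 15 of 16 of ATP synthase and in 14 of 15 cardiomyocyte markers, but in 3 of 9 accessory subunits of the N and Q modules. The median gap of the members was 0.032 without knockout replicate 2, so its sign changed. Without that mouse the gaps of Ndufb4, Ndufs1 and Ndufa1 kept their signs, at -0.061, -0.076 and 0.16. Without the female-labelled libraries with Y-linked reads the median gap was -0.23. There knockout replicate 2, low for most members, is the only knockout female, so this value is no independent check. The cause of the gap was not tested.

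The sample titles end in a number from 1 to 18, whose meaning the labels do not give. With genotype and sex in the model, 6.34 percent of all genes (874 of 13775) were called for a linear change with this number, and 0 of 37 members. At an unadjusted p under 0.05 there were 5 of 37 members beside 24.2 percent of all genes tested. Slopes of the members per 10 numbers ran from -0.22 for Ndufs7 to 0.16 for Ndufv2 on the log2 scale, with 23 above 0 and a median of 0.019. The mean number was 7.5 in Tln2-null and 10.9 in knockout mice, so the number and the genotype are partly aligned.

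The 3 members of lowest p were core subunits, and their slopes were not in 1 direction. Ndufs7 did not pass, at -0.22 ± 0.071 per 10 numbers (adjusted p = 0.0672). It lay between 376.2 and 471 CPM in the 11 mice numbered 1 to 12 and between 332 and 375.9 CPM in the 5 mice numbered 13 to 18, a split chosen after the values were seen. The 5 later mice were thus all below the 11 earlier ones, by a margin of less than 1 CPM at the nearest. Ndufv2 had a slope of 0.16 ± 0.053 (adjusted p = 0.0765) and Ndufs1 one of 0.14 ± 0.046 (adjusted p = 0.0759). Their earlier and later mice overlapped, at 938 to 1196 against 999 to 1208 CPM for Ndufs1 and at 534 to 668 against 564 to 705 CPM for Ndufv2. The remaining 2 with an unadjusted p under 0.05 were Ndufs4 (0.13 ± 0.053) and Ndufb4 (0.14 ± 0.066).

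These slopes lay close to the threshold. DESeq2 called Ndufs1, Ndufs7 and Ndufv2 (adjusted p = 0.0298, 0.0343 and 0.0395), beside 1379 of all genes. With sample quality weights limma-voom called Ndufs1 and Ndufs7 (adjusted p = 0.0391 and 0.0303), beside 1114 of all genes. With edgeR and without Tln2-null replicate 7, Ndufs1, Ndufs4, Ndufb4 and Ndufv2 were called, beside 1162 of all genes. Without Tln2-null replicate 2 Ndufs1 was called (beside 989 of all genes), and without knockout replicate 5 Ndufs7 was (beside 834). Calls among the members thus came in runs that also called many other genes.

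**Figure D5:**
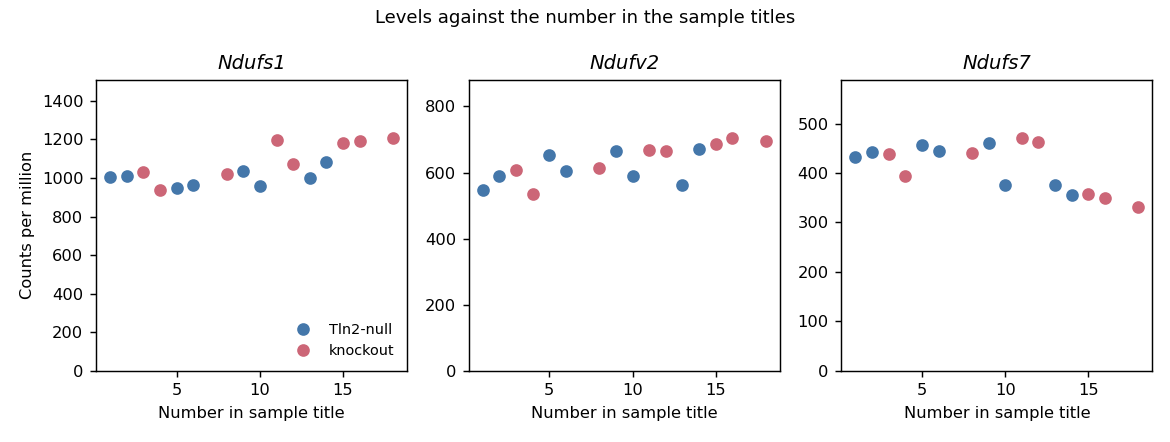
CPM of Ndufs1, Ndufv2 and Ndufs7 in each mouse against the number in its sample title, Tln2-null in blue and knockout in red. Ndufs7 is at 332 to 375.9 CPM in the mice numbered 13 to 18 and at 376.2 to 471 CPM in those numbered 1 to 12.

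The slopes also varied with base composition. Over 36 members, leaving out Ndufb4c, the slope and the GC content of the transcript had a Spearman rho of -0.418 and a Pearson r of -0.497, across genes of the same 16 libraries, which are not independent replicates. Over the 13090 genes tested with a protein-coding transcript, rho was -0.446. With transcript length rho was 0.293 over the members and 0.0092 over all these genes. Ndufs7 has a transcript GC content of 59.6 percent, Ndufs1 one of 45.1 percent and Ndufv2 one of 42.0 percent. The 18 members of lower GC content had 13 slopes above 0 and the 18 of higher GC content had 9. Whether the number stands for a step of handling or sequencing was not tested.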

How the data were processed

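Total RNA of 16 left ventricles was sequenced from directional libraries, per the labels' protocols. DRAGEN, DESeq2 and mm10 are named without roles, per the submitters' processing notes. No label or header used here states the annotation, the strand setting or the handling of reads shared between genes. The authors deposited whole counts per gene symbol. They also deposited a normalized signal, equal to these counts divided by 1 size factor per library, since 100 percent of its values over 16405 genes came out whole within 0.001. A count test on those recovered reads is the same test as on the counts.

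The test was that of edgeR 4.0.16, run in R 4.3.3 (filterByExpr, TMM, quasi-likelihood, genotype and sex as terms). The dependence on sex came from a 4-mean model, 1 mean for each genotype in each sex, and the title number entered as a linear term. Adjusted p-values are Benjamini-Hochberg over all 13775 genes and were called under 0.05. The SE is the absolute log2 change over the square root of F. A p-value weighs an estimated difference against the spread between these mice, which edgeR estimates with information shared across genes. The code was tested on simulated data. Promoters are from RefSeq (GRCm38.p6), with entries for 31 members, and transcript lengths from GENCODE M21. All 37 members enter the counts and ranges, and 1 of them is not reported here by itself. Named genes were the core, X-linked and Ndufa4 pair members, those of lowest p in each comparison, and those of highest and lowest level per length. The members, the 20 gene lists and the tests were chosen with earlier results of these data known. Alternatives used DESeq2 1.42.0, limma 3.58.1 and sva 3.50.0.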

Additional observations from a re-analysis of the deposited data

Results flagged for a closer look

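Each member was checked in each genotype for a mouse far from the other 7, which made 74 groups. In 8 of them the gap to the next mouse was larger than expected for 8 values. Chance alone gives about 1 group in 20 where groups are independent. These groups are genes of the same mice that vary together, so their count cannot be judged against that rate. In 6 of the 8 the mouse was knockout replicate 2, always the lowest. There Ndufb9 was at 551 CPM with the next mouse at 650.4, Ndufb8 at 483 with the next at 565, and Ndufa9 at 602 with the next at 710. Ndufb5 was at 354 with the next at 411, Ndufa5 at 237 with the next at 272, and Ndufc1 at 168 with the next at 189.99 CPM. The other two were high values in Tln2-null mice. Ndufv1, which binds NADH, was at 1017 CPM in Tln2-null replicate 5 with the next at 938, and Ndufa3 was at 232 CPM in Tln2-null replicate 3 with the next at 209.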

How the results depend on the processing

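No paired analysis was possible because the replicate numbers were given here in the order of the records and the genotypes share no title number. No member was called between genotypes, between sexes or for the dependence on sex under any alternative run. Of 306 summary values compared with their main value, 279 stayed within the margin used and 27 moved. For the members' medians it was a shift of 0.091 log2, the SD of their median deviation between mice after genotype and sex. Each main median was smaller in size than that margin, so staying within it says little about them. That margin took no account of sign. The members' median genotype difference, 0.00077 in the main test, was -0.025 without Tln2-null replicate 7. Without knockout replicate 2 their median slope with the title number went from 0.019 to -0.029. Their median dependence on sex went from -0.036 to 0.032 without the same mouse. Of 605 values of named genes 563 kept direction and side of the threshold, 9 came past the threshold, 30 changed sign and 3 levels moved.

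Counts of all genes called between genotypes, 0 in the main test, were 1 with no filter, 17 with DESeq2 (706 at an unadjusted p under 0.05), 11 with limma-voom with sample quality weights (1082), 2 with limma on the deposited normalized values (854), 1 with 1 surrogate variable, 5 without replicate 8 of both genotypes, and 0 to 7 when leaving out 1 mouse, the 7 being without knockout replicate 8 and 3 without Tln2-null replicate 1. Between sexes DESeq2 called 21 genes in place of 12. For the title number, 874 calls became 1379 with DESeq2, 187 without replicate 8 of both genotypes, 219 without the females with Y-linked reads, and 229 to 1162 when leaving out 1 mouse, the lowest without knockout replicate 8. Members called for it were 3 with DESeq2, 2 with limma-voom (beside 1114 of all genes) and 0 to 4 when leaving out 1 mouse. The median dependence on sex was -0.23 without these females.

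Signs changed in the following values of named genes. Leaving out those females, after which knockout replicate 2 is the only knockout female, the genotype difference was -0.022 for Ndufs3, -0.043 for Ndufs8 and -0.037 for Ndufv1, the sex difference was -0.070 for Ndufa1 and -0.035 for Ndufb11, and the dependence on sex of Ndufa1 was -0.025. Ndufs7 was at 0.034 between genotypes with the title number as a term and 0.010 with a surrogate variable. Ndufs8 was at -0.00037 with limma-voom, -0.0040 with the title number and -0.013 with a surrogate variable. The sex difference of Ndufb11 was -0.0033 without replicate 8 of both genotypes. Leaving out 1 mouse gave -0.073 to 0.0025 for Ndufs7 and -0.024 to 0.040 for Ndufs8 between genotypes, and -0.022 to 0.029 for Ndufa1 and -0.018 to 0.039 for Ndufb11 between sexes. The cause was not tested. With 8 mice a genotype the median SE of a member was 0.057, which sets the precision of these comparisons.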
